A study of Mus musculus with 8 samples.

Results

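Collagen chains are the gene products that assemble into the triple helices of the extracellular matrix, and they were examined here in livers whose hepatocyte Smo was left intact or targeted for deletion during experimental steatohepatitis. The chains were taken as every gene symbol in the count lists formed of Col, a number, the letter a and a number, which gave 44 of the 25239 symbols. Of these, 11 encode fibrillar chains, 6 encode chains of the basement membrane collagen type IV and 27 encode other chains, among them the multiplexins, the beaded-filament type VI chains and the fibril-associated chains. Liver RNA from 4 control and 4 Smo-KO mice was sequenced. All 8 were adult male Smo fl/fl mice (allele Smo tm2Amc/J, both copies floxed) on a C57Bl6/J background that ate the CDA-HFD, a fat-rich diet without choline and with defined amino acids, for 6 weeks. A single intravenous vector, AAV8-TBG-Luciferase in control mice and AAV8-TBG-Cre in Smo-KO mice, was given 1 week before sacrifice. The TBG promoter is active in hepatocytes, so excision of the floxed part of Smo is limited to these cells, while the RNA came from whole liver and sums over every cell type. The age of the mice in this cohort is not given in the sources used here. Every liver is a separate mouse, and the p-values below measure the spread between these 8 livers.

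Fibrillar collagens such as types I, III and V form the banded fibers of scar tissue. In a fibrotic liver they are made chiefly by activated stellate cells and portal fibroblasts. Type IV collagen forms the sheet-like network of basement membranes, and in the liver it also lies along the sinusoids and around vessels and ducts. The multiplexins, types XV and XVIII, sit at basement membranes, and hepatocytes are a known source of type XVIII in the liver. The chains are hydroxylated and then folded into the triple helix in the endoplasmic reticulum. The helix is trimmed outside the cell and then crosslinked by lysyl oxidases.

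The 5′ regions of the chains differ widely in base composition, and 3 fibrillar genes are shown as examples because they differed in direction between the groups or led in abundance. Col3a1 encodes the most abundant fibrillar chain in these livers, Col5a1 was lower in Smo-KO livers at an unadjusted p under 0.05 and Col11a2 was higher. They were chosen after their values were seen, from windows that hold no annotated exon. RefSeq (GRCm38.p6) promoter windows were at hand for 35 of the 44 chains and for 19 of the 23 that could be tested. Each run below is the 250 bases before the RefSeq start on the plus strand, 5′ to 3′, and capitals mark the GC box letters GGGCGG or the reverse CCGCCC and the TATA box letters TATAAA or the reverse TTTATA, searched on both strands.
Col3a1, chr1:45311288-45311537, plus strand: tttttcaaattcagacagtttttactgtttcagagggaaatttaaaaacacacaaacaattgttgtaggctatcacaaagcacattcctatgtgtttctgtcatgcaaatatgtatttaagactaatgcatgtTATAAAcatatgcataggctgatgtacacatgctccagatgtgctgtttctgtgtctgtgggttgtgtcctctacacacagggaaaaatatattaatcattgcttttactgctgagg
Col5a1, chr2:27886175-27886424, plus strand: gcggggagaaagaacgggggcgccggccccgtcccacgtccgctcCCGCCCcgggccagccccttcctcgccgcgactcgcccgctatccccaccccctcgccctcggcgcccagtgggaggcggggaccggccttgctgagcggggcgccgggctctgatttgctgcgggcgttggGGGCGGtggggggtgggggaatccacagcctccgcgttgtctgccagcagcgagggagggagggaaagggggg
Col11a2, chr17:34038888-34039137, plus strand: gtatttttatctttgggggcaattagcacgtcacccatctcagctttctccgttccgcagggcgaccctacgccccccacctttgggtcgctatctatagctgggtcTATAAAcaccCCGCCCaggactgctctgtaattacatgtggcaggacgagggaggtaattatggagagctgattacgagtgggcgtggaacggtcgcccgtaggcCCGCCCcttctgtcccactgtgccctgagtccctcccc
The Col3a1 window holds 35.2% G and C, against a median of 52.4% over 32851 RefSeq promoter windows of the same length, and has TATAAA beginning 117 bases before the start and no GC box. The Col5a1 window holds 76.4% G and C with GC boxes beginning 205 and 73 bases before the start and no TATAAA. At 57.6% G and C, the Col11a2 window has TATAAA 143 bases before the start and GC boxes at 133 and 38 bases. Over all windows, 32.7% held the GC box letters and 12.4% the TATA box letters. The CCAAT box letters (CCAAT or ATTGG) were in 33.8% of all windows and in none of these 3. A match of letters is a description and was not examined for binding.

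The lists held between 9177277 and 9999732 reads on genes in control livers and between 8203299 and 9543675 in Smo-KO livers. At this depth 3 reads correspond to 0.297 to 0.366 CPM, the counts per 1000000 reads of a library after edgeR's TMM scaling. Values per mouse are given in the order of the mouse numbers throughout. Between 16492 and 24392 reads per liver fell on collagen chains. The targeted gene was checked first. Smo was at 8.17, 8.49, 8.74 and 8.21 CPM in the control mice against 5.67, 3.93, 4.27 and 4.37 CPM in the Smo-KO mice. The groups did not overlap (exact permutation test, two-sided p = 0.0286, the minimum for groups of 4 and 4), with a log2 fold change of -0.88 and an adjusted p of 0.0957 by edgeR's quasi-likelihood test.

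The livers held RNA of part of the collagen repertoire. Of the 44 chains, 23 (52.3%) had enough reads to be tested, namely 8 of 11 fibrillar, 3 of 6 basement membrane and 12 of 27 other chains. Of the 21 that did not, 3 had no read in any liver: Col9a1 and Col19a1, both of fibril-associated collagens, and Col26a1. A count of 0 allows up to 3 reads in a liver. No untested chain reached more than 15 reads in a liver, a count found for Col6a5 and Col7a1. The untested fibrillar chains were Col2a1 and Col11a1, which are known from cartilage, and Col24a1. The untested type IV chains were Col4a3 (4 to 13 reads per liver), Col4a4 (1 to 7 reads) and Col4a6 (2 to 11 reads), which join Col4a5 in specialized basement membranes, Col4a3 and Col4a4 in that of the kidney glomerulus and Col4a6 elsewhere.

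Levels per length, in CPM per kilobase of the longest coding GENCODE M21 transcript, ranged 619-fold between the highest and lowest tested chain in control livers. Col18a1, whose C-terminal fragment is endostatin, led at 193 ± 19.1 CPM per kb (SD, n = 4). The fibrillar chains of types III and I followed, with Col3a1 at 69.3, Col1a1 at 32.1 and Col1a2 at 26.5 CPM per kb. Next came Col4a1 at 24.7, the fibril-associated Col14a1 at 15.1 and Col4a2 at 12.8 CPM per kb. Per length, Col18a1 was 59.2-fold above its fellow multiplexin Col15a1 (3.26 CPM per kb), and Col3a1 was 2.16-fold above Col1a1. The type VI chains Col6a1, Col6a3 and Col6a2 stood at 10.3, 6.91 and 6.19 CPM per kb, and the type V chains Col5a3, Col5a1 and Col5a2 at 4.75, 4.38 and 3.86. At the low end were Col4a5 at 0.571, Col11a2 at 0.401, Col17a1 at 0.319 and Col8a1 at 0.312 CPM per kb.

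**Figure D1:**
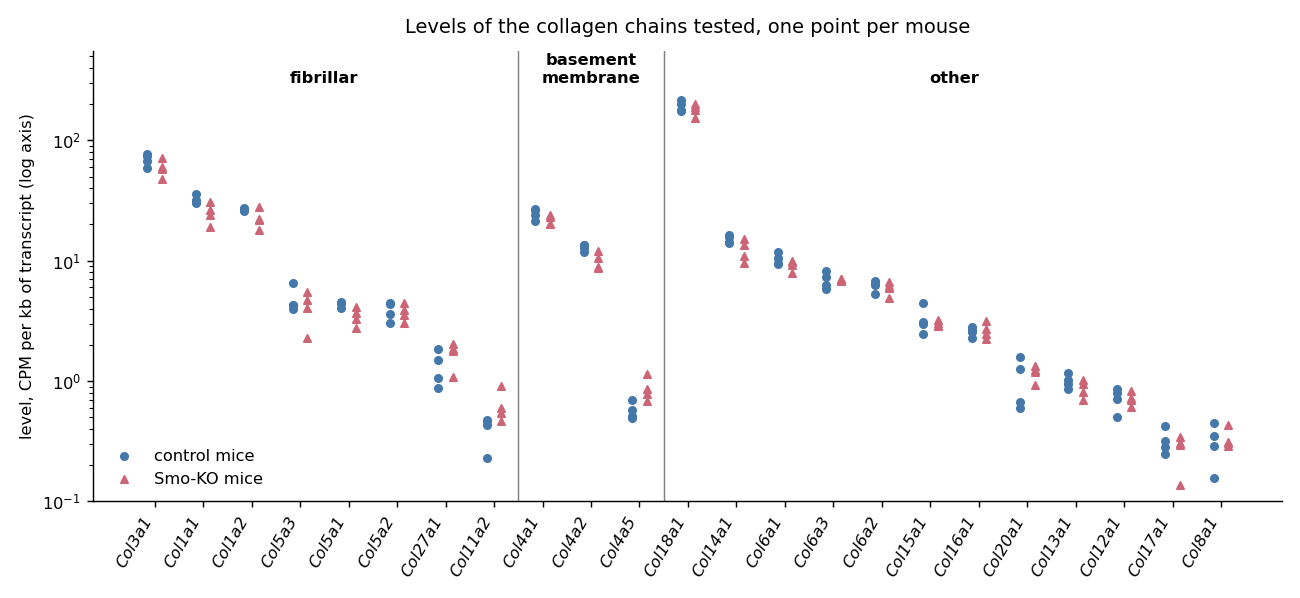
Level of each tested collagen chain in CPM per kilobase (log axis), by group of chain, with 1 circle per control mouse and 1 triangle per Smo-KO mouse. Col18a1 stands at 193 CPM per kb in control livers, Col3a1 leads the fibrillar chains at 69.3, and points of the control and Smo-KO livers overlap for every chain.

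Summed over chains, collagen RNA averaged lower in Smo-KO livers, by the largest share in the fibrillar and basement membrane groups. The fibrillar sum was 785, 868, 846 and 790 CPM in control mice against 714, 560, 671 and 829 CPM in Smo-KO mice. In 3 of the Smo-KO mice the sum was thus below the lowest control and Smo-KO mouse 4 was inside the control range, and the group mean was 84.3% of control (822 ± 41.5 and 693 ± 111 CPM, SD, n = 4 each). The basement membrane sum was 232, 258, 269 and 246 CPM in control mice and 236, 200, 224 and 209 CPM in Smo-KO mice. Here Smo-KO mouse 1 was inside the control range, and the mean was 86.5% of control (251 ± 15.7 and 217 ± 16.2 CPM). The other chains summed to 1487, 1432, 1273 and 1301 CPM in control mice and 1355, 1348, 1116 and 1280 CPM in Smo-KO mice, with only Smo-KO mouse 3 below the lowest control and a mean at 92.8% of control. With library totals in place of TMM scaling, 2 Smo-KO mice were below the lowest control for the basement membrane sum and 2 for the other chains.
All chains together reached 2504, 2558, 2387 and 2336 CPM in control mice and 2305, 2107, 2011 and 2317 CPM in Smo-KO mice. All 4 Smo-KO livers were below the lowest control liver, by as little as Smo-KO mouse 4 against control mouse 4. None of the fibrillar, basement membrane and other sums separated the groups in this way. Col18a1 alone made up 44.1% of the summed chains in control livers, and its own values overlapped between the groups. Among single genes, the groups did not overlap for 7.37% of all genes tested. The mean was 89.3% of control (2446 ± 102 and 2185 ± 151 CPM), and the Smo-KO livers were all below with RLE size factors and with library totals in place of TMM scaling as well. These sums are given without a test, because the chains were chosen with results of these data known. Without Smo-KO mouse 2, the log2 ratio of the fibrillar sums was -0.16 in place of -0.25, and that of the other chains was -0.05 without Smo-KO mouse 3 and -0.07 without control mouse 1 in place of -0.11. In whole-liver RNA, fewer cells of a type and less RNA per cell cannot be told apart.

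**Figure D2:**
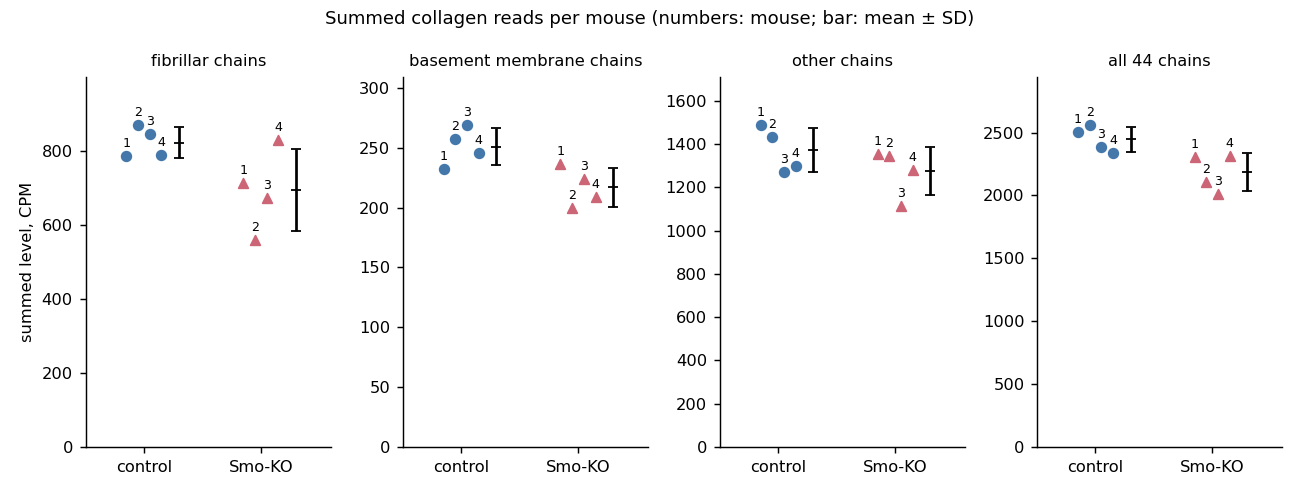
Summed CPM of fibrillar, basement membrane, other and all collagen chains in each of the 8 livers, with 1 numbered point per mouse and a bar for the mean ± SD (n = 4). The summed level of all chains lies between 2336 and 2558 CPM in control livers and between 2011 and 2317 CPM in Smo-KO livers.

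Chain by chain, no collagen passed the test. At an adjusted p under 0.05, edgeR's quasi-likelihood test with Benjamini-Hochberg adjustment over 12977 genes called 0 of the 23 chains, with adjusted p between 0.205 and 0.991, and it called 0% of all genes tested. DESeq2's Wald test also called 0 chains, with the lowest adjusted p of 0.128 for Col4a2 and none given for Col8a1 and Col17a1, while it called 1.26% of all genes. At an unadjusted p under 0.05, edgeR counted 6 of 23 chains (26.1%), 4 lower and 2 higher in Smo-KO livers, against 13.8% of all genes (7.15% lower and 6.7% higher). DESeq2 counted 6 of 23 at the same unadjusted threshold, where 12.5% of all genes lay. The groups did not overlap for 0 of the 23 chains and for 7.37% of all genes. The fold change was below 0 on the log2 scale for 16 of 23 chains (69.6%) and for 50.1% of all genes. The median log2 fold change was -0.13 over the 23 chains, -0.21 over the fibrillar, -0.17 over the basement membrane and -0.09 over the other chains, and -0.0008 over all genes. Single mice moved these medians: without control mouse 2 that of the fibrillar chains was -0.10 and that of all 23 chains -0.08, and without Smo-KO mouse 2 that of the fibrillar chains was -0.14 and that of the other chains -0.04, while without control mouse 3 the other chains were at -0.14.

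**Figure D3:**
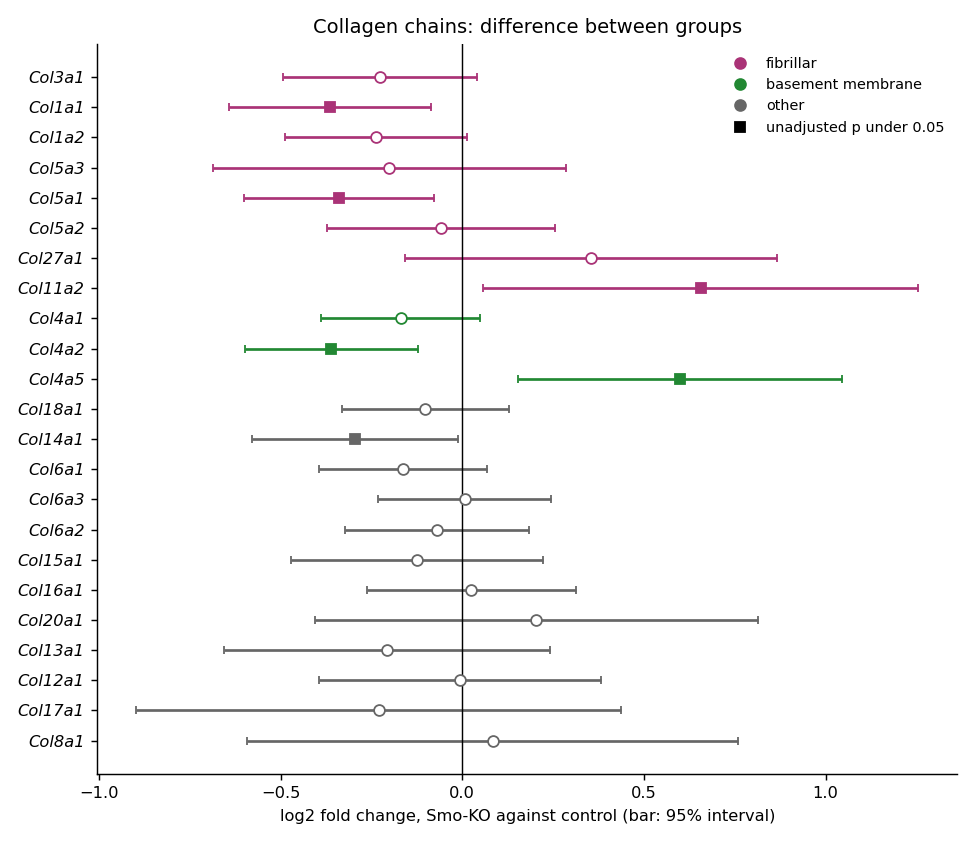
Log2 fold change of Smo-KO against control for each of the 23 tested chains, with 95% intervals from edgeR's fit colours for fibrillar, basement membrane and other chains, and filled squares for an unadjusted p under 0.05. The lowest value is that of Col1a1 at -0.36 and the highest that of Col11a2 at 0.66, and 17 of the 23 intervals hold 0.

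Of the 8 fibrillar chains tested, 6 had a log2 fold change below 0 and 2 above it, and 0 passed the adjusted threshold. Col3a1, the single chain of type III collagen, was at 328, 412, 427 and 375 CPM in control mice against 332, 267, 324 and 396 CPM in Smo-KO mice. Smo-KO mice 2 and 3 were below every control, and the other pair was within the control range. Its log2 fold change was -0.23 (95% interval -0.49 to 0.04, adjusted p = 0.434 by edgeR's quasi-likelihood test).
Type I collagen is built from the Col1a1 and Col1a2 chains, with more of the former in each helix. Col1a1 was at 213, 190, 181 and 179 CPM in control mice and at 156, 112, 143 and 181 CPM in Smo-KO mice. The first 3 Smo-KO mice lay below every control and the fourth among the controls, so that the mean was 77.6% of control with a log2 fold change of -0.36 (standard error 0.13, edgeR adjusted p = 0.248). Col1a2 was held within a narrow range in control mice, at 143, 145, 138 and 140 CPM, and spread from 118, 95.8 and 117 to 149 CPM in Smo-KO mice. The same 3 Smo-KO mice were below the controls and Smo-KO mouse 4 was above them, with a log2 fold change of -0.24 (95% interval -0.49 to 0.01). Per length, the ratio of Col1a1 to Col1a2 was 1.21 ± 0.0856 in control and 1.11 ± 0.0548 in Smo-KO livers, with overlapping values (SD, n = 4 per group).
Type V collagen starts the assembly of type I fibrils. Its chain Col5a1 was at 37.7, 38.2, 37.6 and 33.8 CPM in control mice and 34.8, 23.0, 27.4 and 30.9 CPM in Smo-KO mice. Smo-KO mouse 1 was above control mouse 4 and the other 3 were below all controls, which gave a log2 fold change of -0.34 (standard error 0.12, edgeR adjusted p = 0.253). Its partner Col5a2 averaged 25.6 ± 4.47 and 24.6 ± 3.90 CPM, a log2 fold change of -0.06 (95% interval -0.37 to 0.26). Col5a3 averaged 29.0 ± 7.26 and 25.2 ± 8.22 CPM, a log2 fold change of -0.20. That value was -0.36 without Smo-KO mouse 1, -0.008 without control mouse 2 and -0.007 without Smo-KO mouse 3.
Col11a2, a chain of the type XI collagen of cartilage fibrils, was at 2.61, 2.83, 1.39 and 2.87 CPM in control mice and at 5.46, 2.84, 3.29 and 3.62 CPM in Smo-KO mice, from 14 to 53 reads. Only Smo-KO mouse 2 fell within the control range, and the log2 fold change was 0.66 (95% interval 0.06 to 1.26, edgeR adjusted p = 0.318). It was 0.43 without Smo-KO mouse 1 and 0.46 without control mouse 3, neither at an unadjusted p under 0.05. Col27a1, likewise known from cartilage, averaged 10.04 ± 3.29 and 12.8 ± 3.15 CPM with a log2 fold change of 0.36 (95% interval -0.16 to 0.87). It ran from 0.20 without control mouse 3 to 0.55 without control mouse 1, and the unadjusted p was under 0.05 only without control mouse 1 or Smo-KO mouse 1.

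Of the 3 basement membrane chains tested, 2 had a log2 fold change below 0 and 1 above it, and 0 passed the adjusted threshold. Col4a1 and Col4a2 form the common type IV heterotrimer, and their genes lie head to head on chromosome 8, where GENCODE M21 places Col4a1 at 11198423 to 11312826 on the minus strand and Col4a2 at 11312805 to 11449287 on the plus strand (GRCm38), so that their first exons share 22 bases. Col4a1 was at 141, 176, 177 and 158 CPM in control mice and 153, 134, 160 and 134 CPM in Smo-KO mice, with Smo-KO mice 2 and 4 below every control. Col4a2 was at 86.9, 75.8, 86.8 and 81.8 CPM in control mice and 77.1, 55.7, 57.7 and 67.4 CPM in Smo-KO mice. All but Smo-KO mouse 1 were below the controls for Col4a2, and its mean was 77.9% of control. The log2 fold changes were -0.17 for Col4a1 (95% interval -0.39 to 0.05) and -0.36 for Col4a2 (95% interval -0.60 to -0.12). The edgeR adjusted p of 0.205 for Col4a2 was the lowest of any chain. Per length, the ratio of Col4a1 to Col4a2 was 1.93 ± 0.284 in control and 2.23 ± 0.368 in Smo-KO livers, with overlapping values.
Col4a5, on chromosome X, encodes a chain of the specialized type IV network. It was at 3.74, 3.25, 3.38 and 4.55 CPM in control mice and 4.43, 7.53, 5.61 and 5.12 CPM in Smo-KO mice, from 31 to 69 reads. Smo-KO mouse 1 was below control mouse 4 and the other 3 were above every control, which put the mean at 152% of control (log2 fold change 0.60, standard error 0.21, edgeR adjusted p = 0.242).

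Among the other chains, Col18a1 made up 44.1% ± 3.11 of the summed chains in control and 46.1% ± 4.73 in Smo-KO livers. It was at 1215, 1116, 987 and 1002 CPM in control mice and 1064, 1111, 854 and 996 CPM in Smo-KO mice. Only Smo-KO mouse 3 was below the controls, and the log2 fold change was -0.10 (95% interval -0.33 to 0.13), or -0.03 without that mouse and -0.04 without control mouse 1. Its fellow multiplexin Col15a1 was at 12.8, 23.2, 16.1 and 15.3 CPM in control mice and between 14.8 and 16.5 CPM in all Smo-KO mice. The spread of Col15a1 was therefore within the control group, and without control mouse 2 its log2 fold change was 0.07 in place of -0.13.
Col14a1, a fibril-associated collagen that binds to the surface of type I fibrils, was at 89.8, 92.1, 106 and 102 CPM in control mice and 97.8, 61.7, 70.9 and 87.2 CPM in Smo-KO mice. For Col14a1, 3 Smo-KO mice were below every control and Smo-KO mouse 1 was in the control range, with a log2 fold change of -0.30 (standard error 0.13, edgeR adjusted p = 0.342). Of the other fibril-associated chains, Col12a1 averaged 8.25 and 8.19 CPM, Col16a1 13.5 and 13.7 CPM and Col20a1 5.14 and 5.89 CPM in control and Smo-KO livers.
Type VI collagen forms beaded filaments around cells from several different chains. Col6a3 was at 58.4, 83.5, 63.3 and 74.1 CPM in control mice and between 68.8 and 71.6 CPM in Smo-KO mice, all of them inside the control range, with a log2 fold change of 0.01 (95% interval -0.23 to 0.24). Col6a1 averaged 42.3 ± 4.53 and 37.7 ± 3.68 CPM and Col6a2 28.8 ± 2.93 and 27.5 ± 3.59 CPM. The scarce transmembrane chains Col13a1 and Col17a1 averaged 3.15 and 1.78 CPM in control and 2.73 and 1.51 CPM in Smo-KO livers. With a mouse left out, the log2 fold change of Col13a1 (-0.21 with all mice) ran from -0.29 to -0.11. That of Col17a1 (-0.23) ran from -0.37 to -0.01. Col8a1, of a network-forming collagen of vessels, averaged 1.59 and 1.70 CPM.

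**Figure D4:**
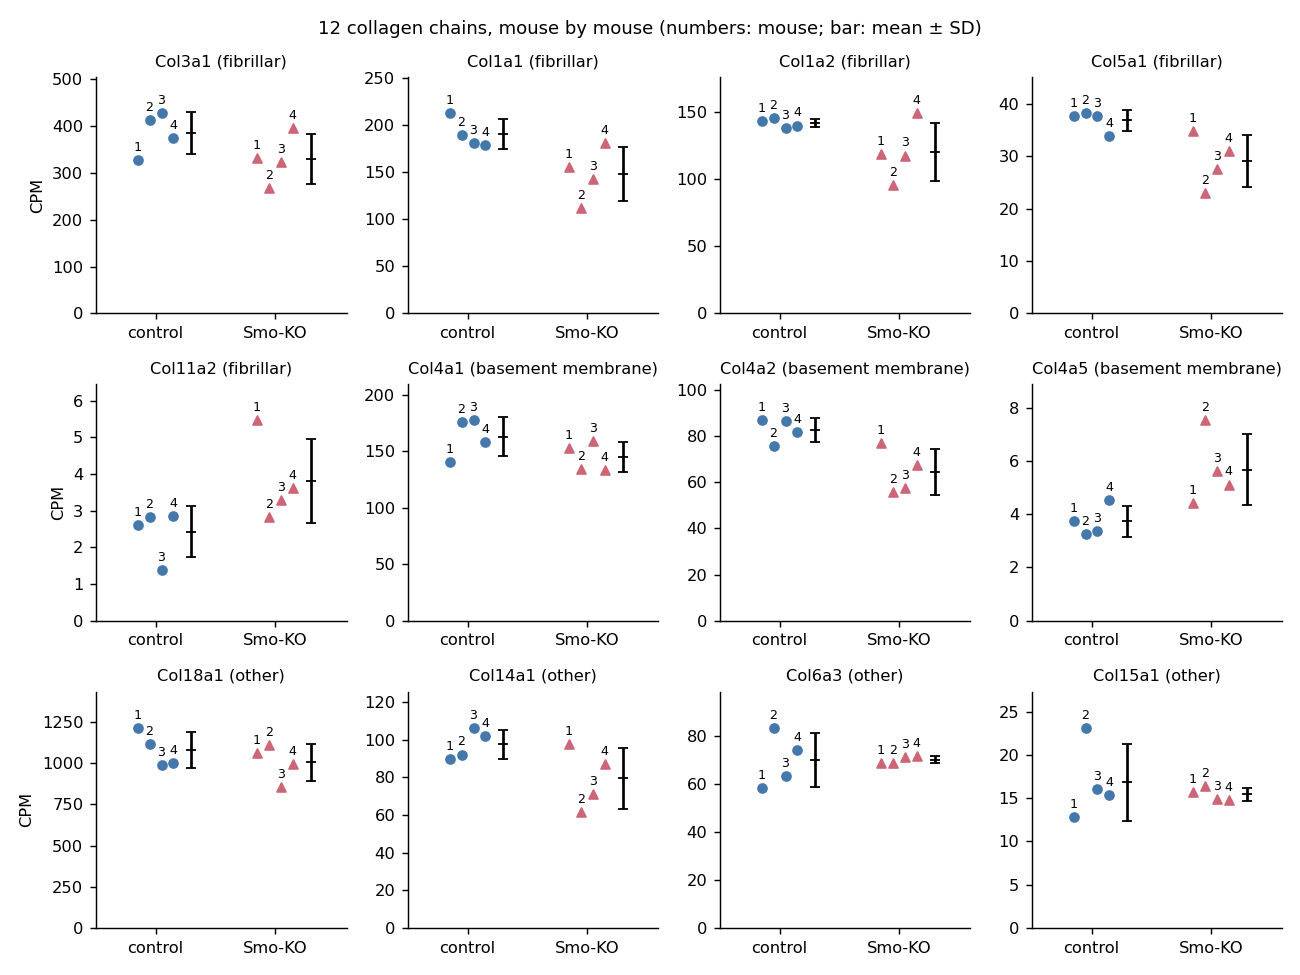
CPM in each liver for the 12 chains given mouse by mouse, with 1 numbered point per mouse and a bar for the mean ± SD (n = 4), each panel on its own axis from 0. Col1a1, Col1a2, Col4a2, Col5a1 and Col14a1 have 3 Smo-KO mice below the lowest control, with the fourth above every control for Col1a2, Col4a5 and Col11a2 have 3 above the highest, and Smo-KO values of Col6a3 lie between 68.8 and 71.6 CPM.

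The lower values were spread unevenly over the Smo-KO mice. Smo-KO mouse 2 had the lowest of the 8 values in 12 of the 23 chains, 5 of 8 fibrillar and 6 of 12 other, whereas Smo-KO mice 1, 3 and 4 had it in 0, 2 and 1. Control mice had the highest value in 18 of the 23 chains (4, 7, 5 and 2 for mice 1 to 4). Such counts per mouse were not made over all genes, so whether they are particular to collagen chains was not tested. The median log2 difference from the control mean over the 23 chains was -0.05, -0.28, -0.17 and -0.01 in Smo-KO mice 1 to 4, against -0.08 to 0.05 in control mice, so that Smo-KO mice 1 and 4 were inside the control range. Over the 3 basement membrane chains alone, Smo-KO mouse 4 had the lowest median of the 8 livers, at -0.285, next to -0.283 in Smo-KO mouse 2. Without Smo-KO mouse 2, the log2 fold changes were -0.25 for Col1a1, -0.24 for Col5a1, -0.19 for Col14a1, -0.30 for Col4a2, -0.14 for Col3a1 and for Col1a2, and 0.43 for Col4a5. In that fit 4 of the 25 chains tested had an unadjusted p under 0.05, against 13.1% of all genes. Leaving out Smo-KO mouse 4 instead gave -0.36 for Col1a2 and -0.33 for Col3a1. There 8 of 24 chains were at that threshold, against 10.2% of all genes. Over the 8 fits that each left out 1 mouse, Col1a1, Col4a2 and Col5a1 had an unadjusted p under 0.05 in 8, Col4a5 in 7 (not without Smo-KO mouse 2), Col11a2 in 6 and Col14a1 in 4 (not without control mouse 3 or 4 or Smo-KO mouse 2 or 3). Among chains not under 0.05 with all mice, Col3a1 was under it without control mouse 1 or Smo-KO mouse 4. Col4a1 was so without control mouse 1, and Col27a1 without control mouse 1 or Smo-KO mouse 1. Col1a2 was so without Smo-KO mouse 4, and with the mouse number as a block.

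**Figure D5:**
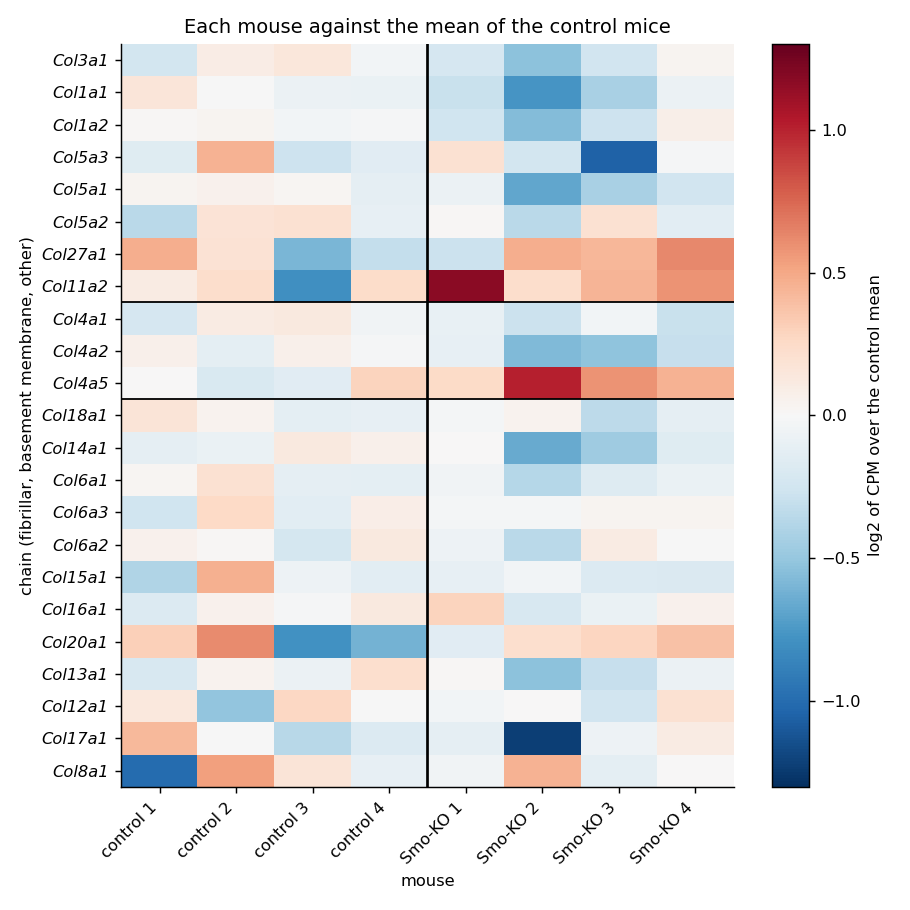
Log2 difference of each chain from its control mean in each liver (colour), with chains in rows by group and mice in columns. The column of Smo-KO mouse 2 is the lowest for most fibrillar chains, and Col4a5 and Col11a2 are above the control mean in every Smo-KO mouse.

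Cells that make collagen were gauged by fixed marker lists, whose part in the collagen values was not tested. Stellate cell markers summed to 414 ± 28.3 CPM in control and 419 ± 62.4 CPM in Smo-KO livers (SD, n = 4), with Ecm1 the most abundant, and 1 of 10 genes tested was higher and 1 lower at an unadjusted p under 0.05, where 6.7% of all genes were higher and 7.15% lower. The sum was 381, 428, 403 and 446 CPM in control mice and 477, 342, 394 and 462 CPM in Smo-KO mice, so that Smo-KO mouse 2, which had the lowest fibrillar and basement membrane sums, was also lowest here, while the sum of all collagen chains was lowest in Smo-KO mouse 3. DESeq2 called 1 of them, Ngfr, at an adjusted p of 0.0126 (10.3 ± 2.19 and 5.24 ± 1.56 CPM), where it called 1.26% of all genes. Of the stellate cell markers 6 were above and 4 below control, with a median log2 fold change of 0.03. Markers of activated stellate cells or myofibroblasts summed to 219 ± 19.7 and 238 ± 40.9 CPM, with Lgals1, the most abundant, at 79.1 ± 6.55 and 101 ± 21.4 CPM. Of 8 such markers 7 were tested, 5 above and 2 below control (median log2 fold change 0.15) and 1 higher and 1 lower at an unadjusted p under 0.05, and the sum was 194, 229, 240 and 214 CPM in control mice and 220, 195, 245 and 291 CPM in Smo-KO mice. Portal fibroblast markers summed to 71.8 ± 10.8 and 71.9 ± 7.11 CPM, with Entpd2 at 22.4 and 29.3 CPM and 1 of 6 tested genes higher and 1 lower at that threshold, and 4 of the 6 were below control (median log2 fold change -0.15). The sinusoidal endothelial markers had 7 of 9 genes below control and a median log2 fold change of -0.26, lower than the medians of the fibrillar and basement membrane chains, with 0 genes higher and 1 lower at an unadjusted p under 0.05. Stab1, their most abundant gene, lay in the other direction at 68.8 ± 5.04 and 84.3 ± 18.9 CPM. Their summed level was 295 ± 22.0 and 280 ± 78.5 CPM. It was 279, 274, 308 and 320 CPM in control mice and 375, 192, 248 and 304 CPM in Smo-KO mice, again lowest in Smo-KO mouse 2. The portal fibroblast sum was instead lowest in control mouse 3, at 58.0 CPM, with 69.5 CPM in Smo-KO mouse 2. Of the lists below, the cholangiocyte sum was highest in Smo-KO mouse 2 (239 CPM, of which Spp1 gave 212) and the macrophage sum lowest there (1253 CPM).
Cholangiocyte markers summed to 149 ± 41.9 and 177 ± 45.9 CPM, and macrophage markers (Cd5l the most abundant) to 1506 ± 226 and 1495 ± 243 CPM. The cholangiocyte sum was mostly Spp1 (126 ± 39.2 and 154 ± 42.3 CPM) and so rests largely on this gene. Hepatocyte markers summed to 34436 ± 3427 and 34346 ± 917 CPM, with Alb the most abundant. The median log2 fold change was 0.29 for the cholangiocyte list and 0.01 for the macrophage and the hepatocyte lists. Of these lists, 0 of 5 tested cholangiocyte genes, 1 of 8 macrophage genes (higher) and 1 of 8 hepatocyte genes (lower) had an unadjusted p under 0.05. The macrophage gene was Trem2 (33.6 ± 2.94 and 56.5 ± 9.70 CPM), which DESeq2 called at an adjusted p of 0.000156, the 1 call it made among the 8 macrophage genes against the same 1.26% of all genes. Ngfr and Trem2 were named after their values were seen. Of the markers of tissues that could be carried along with a liver piece, 1 of each list reached the test. The sums were mesothelium (Wt1) at 4.71 and 4.25 CPM, skeletal muscle (Mylpf, with Myh4 at 0) at 2.69 and 1.88 CPM, adipocyte (with Lep at 0) at 42.8 and 63.4 CPM and exocrine pancreas (Cela1, with Cpa1 at 0) at 29.6 and 28.8 CPM. The exocrine pancreas sum was almost all Cela1 (29.4 ± 4.74 and 28.7 ± 5.05 CPM), with the other markers of that list close to 0. Wt1 itself, at 1.49 and 2.72 CPM, and Mylpf, at 1.27 and 1.47 CPM, averaged higher in Smo-KO livers while the sums of their lists averaged lower. The adipocyte sum, at 148% of control in Smo-KO livers, was almost all Cidec (42.7 ± 14.7 and 63.3 ± 23.1 CPM, edgeR adjusted p = 0.362), which encodes a lipid droplet protein.

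Of the genes that fold, process and bind collagen, 0 passed the adjusted threshold of edgeR's test. Their counts are read against all genes tested, of which 50.1% were below control, 13.8% had an unadjusted p under 0.05 and 7.37% had groups that did not overlap. Of the 22 genes for modification and folding, 20 were tested, 13 below and 7 above control, and 0 were higher and 3 lower at an unadjusted p under 0.05. The 3 were Sec24d, a coat protein for the export of procollagen from the endoplasmic reticulum (144 ± 15.04 and 107 ± 17.4 CPM), the collagen chaperone Serpinh1 (84.8 ± 6.16 and 69.1 ± 7.55 CPM) and the prolyl hydroxylase P3h1 (38.1 ± 4.59 and 30.6 ± 6.42 CPM). Sec24d was lower in all Smo-KO livers than in any control (log2 fold change -0.43, edgeR adjusted p = 0.183). P4hb, a subunit of prolyl 4-hydroxylase and the most abundant gene of this list, averaged 2108 ± 277 and 1799 ± 262 CPM.
Of 13 genes for procollagen processing and crosslinking, 10 were tested, 8 of them below control, and again 0 were higher and 3 lower. These were Adamts2, which removes the amino-terminal propeptide (24.5 ± 2.18 and 19.6 ± 1.29 CPM, not overlapping), and the lysyl oxidase family members Loxl1 (14.1 ± 1.94 and 11.2 ± 0.446 CPM) and Loxl2 (17.5 ± 1.72 and 13.3 ± 3.03 CPM). Bmp1, which removes the carboxy-terminal propeptide, averaged 146 ± 16.3 and 152 ± 5.27 CPM. Among 8 tested receptor and uptake genes of 10, 5 of them below control, the integrin Itga2 was lower (2.10 ± 0.909 and 1.10 ± 0.302 CPM, not overlapping) and Itga10 higher (2.29 ± 1.03 and 3.64 ± 0.406 CPM), each at an unadjusted p under 0.05, and Itgb1 averaged 256 and 246 CPM.
Of the fibril partners, 11 of 12 were tested, 7 of them below control, and 1 was lower at an unadjusted p under 0.05, Thbs2, a matricellular protein of collagen fibrils (27.9 ± 3.56 and 20.4 ± 2.20 CPM, not overlapping, edgeR adjusted p = 0.160), while Fn1 averaged 1067 ± 38.8 and 1012 ± 78.1 CPM. All 15 basement membrane partners were tested, 13 of them below control, and 2 were lower and 1 higher at that threshold. Nid2, which links laminin to type IV collagen, was at 4.35 ± 0.488 and 2.60 ± 0.589 CPM (log2 fold change -0.75, edgeR adjusted p = 0.176), and the laminin chain Lamc1 at 32.1 ± 2.11 and 26.3 ± 3.06 CPM, neither overlapping. The laminin chain Lama5 was at 8.98 ± 1.43 and 12.3 ± 1.58 CPM, the opposite direction to its partner Lamc1. Agrn, the most abundant gene of this list, averaged 114 ± 27.8 and 112 ± 12.7 CPM. The median log2 fold change was -0.08 for modification and folding, -0.17 for processing and crosslinking, -0.03 for receptors, -0.08 for fibril partners and -0.17 for basement membrane partners.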

How the data were processed

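The authors deposited whole-number read counts per gene symbol, without normalization, for the livers of 4 control and 4 Smo-KO mice. The submitters' processing notes name fastp, STAR 2.7.5, featureCounts 2.0.1 and GRCm38, while the lists end in the summary lines that htseq-count writes. The gene annotation and the strand setting are not given in the sources used here, so reads of a chain and of an antisense gene cannot be told apart. Reads on no feature (7.56% to 9.68% per liver) and on more than 1 gene (2.45% to 2.61%) entered neither library sizes nor tests.

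Genotype was tested with edgeR 4.0.16 under R 4.3.3 (TMM scaling, filterByExpr, glmQLFit, glmQLFTest, Benjamini-Hochberg over 12977 genes), and DESeq2 1.42.0 was an alternative. Intervals are 95% intervals from edgeR's standard errors. CPM, levels per kilobase and coordinates (GENCODE M21, symbols matched exactly) were computed here. Smo was also compared by an exact permutation test. Of the tested chains, 17 share no exon base with another gene, and the largest share is 2.50% (Col5a1). The median log2 change of all genes moved by less than 0.1 between TMM, RLE and DESeq2 scaling. Each of these scalings centers most genes near 0, so this small move does not test the scaling. Livers of 1 group differed by a chi-square of 8.14 to 18.4 per degree of freedom, so none was a copy. Without molecular identifiers, depth describes counting error only.

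The chains, lists and tests were chosen with earlier results of these data known. Each tested chain is given by its group means or, for 12 chains, by values or ranges over single mice. These 12 are the 2 most abundant fibrillar, basement membrane and multiplexin chains, the most abundant beaded-filament and fibril-associated chain, Col1a2 and each chain with an unadjusted p under 0.05 or groups that do not overlap. Partner lists are given by the most abundant gene and up to 4 with the smallest unadjusted p under 0.05, and marker lists by the most abundant gene. The procedure was tested on simulated counts. Alternatives were other size factors, DESeq2, no filter, at least 10 counts in every sample, a replicate block and each mouse left out.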

Additional observations from a re-analysis of the deposited data

Results flagged for a closer look

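In 3 of 78 groups of 4 mice examined, 46 of them groups of a chain, 1 mouse lay well apart from the remaining 3. By chance this happens in about 1 in 20 groups, or 3.9 of those examined. For Col5a1, control mouse 4 was at 33.8 CPM and the other controls between 37.6 and 38.2 CPM. For Col5a3, control mouse 2 was at 39.8 CPM and the other controls between 24.1 and 26.2 CPM. The exocrine pancreas markers, almost all of them reads of Cela1, summed to 21.5 CPM in Smo-KO mouse 3 and to between 30.3 and 32.0 CPM in the other Smo-KO mice.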

How the results depend on the processing

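No chain had an adjusted p under 0.05 in any alternative run, and 4 to 9 of the 23 to 25 then tested had an unadjusted p under 0.05 when a mouse was left out (4 of 25 without Smo-KO mouse 2, 4 of 24 without control mouse 3, 9 of 24 without control mouse 1), against 6 of 23 with all mice. All genes at that threshold were 13.1%, 10.6% and 14.9% in those 3 fits, 9.5% to 17.8% over all fits with a mouse left out and 13.8% with all mice. Over all genes, calls at an adjusted p under 0.05 numbered 0 in edgeR with all mice, 163 with DESeq2, 61 without a filter, 8 with the replicate block and 0 to 78 with a mouse left out.

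With a mouse left out, the log2 ratio of the sums ran from -0.34 to -0.16 for fibrillar, -0.25 to -0.17 for basement membrane, -0.14 to -0.05 for other and -0.19 to -0.12 for all chains. The direction turned in 18 of 297 alternative values, in 7 chains, of which Col15a1 had the largest change with all mice (-0.13): with a mouse left out, Col12a1 ran from -0.14 to 0.10, Col15a1 from -0.233 to 0.0691, Col16a1 from -0.0695 to 0.0946, Col5a2 from -0.156 to 0.0289, Col6a2 from -0.133 to 0.0148, Col6a3 from -0.0694 to 0.106 and Col8a1 from -0.12 to 0.31, and with the replicate block Col12a1 was at 0.0053. The cause was not tested.

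Partner genes at an unadjusted p under 0.05 numbered 1 of 7 for receptors with at least 10 counts in every sample, where 13.9% of all genes lay. For fibril partners they numbered 2 of 11 with DESeq2 (12.5% of all genes), 3 of 12 without a filter (11.4%) and 2 of 11 with the replicate block (16.3%). With a mouse left out, partner genes at that threshold ran from 2 to 5 of 20 for modification and folding (5 without control mouse 2), 2 to 3 of 10 or 11 for processing, 0 to 3 of 8 for receptors (0 without Smo-KO mouse 4), 1 to 3 of 11 for fibril partners (3 without control mouse 4 or Smo-KO mouse 2) and 2 to 5 of 15 for basement membrane partners (5 without control mouse 1). All genes at that threshold were 9.5% to 17.8% in these fits. The log2 fold change of Smo was -0.87 with DESeq2 (adjusted p = 0.00613), -0.88 without a filter (edgeR adjusted p = 0.0385) and -0.997 to -0.811 with a mouse left out (edgeR adjusted p = 0.0266 without Smo-KO mouse 1). In the other fits with a mouse left out, the edgeR adjusted p of Smo was 0.0944 to 0.219. It was 0.0932 with RLE size factors, 0.0926 with at least 10 counts in every sample and 0.0722 with the replicate block.

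Same-numbered mice of the groups correlated by 0.0611 to 0.187, over 0.1 for 3 of 4 pairs and under it for 1. Mice with different numbers correlated by -0.205 to 0.157, so the ranges overlapped. The labels give no shared source for a number, and the numbers were not taken as pairs. That 5 of 8 livers correlated best with their own number is a hint from the data, and blocking on the number gave 7 of 23 chains and 16.3% of all genes at an unadjusted p under 0.05. Depth limits the scarce chains: Col11a2 and Col4a5 rest on 14 to 69 reads per liver.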
